A study of Mus musculus with 24 samples.

Results

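Adipokines are proteins that fat cells release into the blood. The genes described here are Adipoq, Lep, Retn, Cfd, Rarres2 and Lcn2, taken as the rows of the count table of a brown adipose tissue (BAT) study whose Ensembl identifiers carry those symbols. All 6 were among the 12615 genes of the table, and all 6 were among the 12485 genes that passed the filter on low counts.

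BAT RNA of 24 mice was read as one 3′ tag per transcript, and long and short transcripts therefore have equal weight in the counts. Every mouse carried floxed alleles of both Tbl1xr1 (encoding TBLR1) and Tbl1x (encoding TBL1), subunits of a nuclear corepressor complex. BATdKO mice also carried a tamoxifen-inducible Cre recombinase under the Ucp1 promoter, which is active in brown adipocytes, and Cre- controls lacked it. There were 4 groups of 6 mice, called m1 to m6 here, with each genotype at 30°C for 4 days or at 8°C for 6 days per the labels, while the study's methods give 3 days for the cold.

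Per the labels the mice were female, raised at 22°C and brought to the cold by steps of a day at 18, 16 and 12°C, starting 3 weeks after tamoxifen. A figure legend of the study instead describes males, with 3 to 4 mice per group. The labels state an age of 5 years at tamoxifen where the methods state 5 weeks. Nothing in the labels says which mice shared a cage or litter. Because bulk tissue was sequenced, fewer cells of a type and less RNA per cell cannot be told apart.

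White and brown adipocytes both make adipokines, and white fat is the main source of most of them. Adiponectin, the product of Adipoq, raises fatty acid oxidation and insulin sensitivity, and leptin, from Lep, signals the size of fat stores to the brain. Resistin, from Retn, opposes insulin action in mice. Adipsin, from Cfd, is complement factor D, the protease that cleaves factor B in the alternative pathway. Chemerin, from Rarres2, attracts immune cells through the receptor Cmklr1, and lipocalin 2, from Lcn2, binds bacterial siderophores and is induced in inflammation. Rarres2 and Lcn2 are also transcribed in liver.

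The genes lie on 5 chromosomes of GRCm38. Adipoq (ENSMUSG00000022878) spans bases 23146536 to 23158028 of chromosome 16 on the plus strand, and Lep (ENSMUSG00000059201) spans bases 29060220 to 29073877 of chromosome 6 on the plus strand. Retn (ENSMUSG00000012705) lies on chromosome 8 from 3655770 to 3660110 and Cfd (ENSMUSG00000061780) on chromosome 10 from 79890853 to 79892655, both on the plus strand. Rarres2 (ENSMUSG00000009281) lies on chromosome 6 from 48569696 to 48572789 and Lcn2 (ENSMUSG00000026822) on chromosome 2 from 32384633 to 32388252, both on the minus strand. All are protein coding. Exons of 5 of the 6 overlap no other annotated exon, whereas those of Rarres2 overlap Lrrc61 on the opposite strand. Whether reads were counted by strand is not given in the sources used here, so reads of Rarres2 and Lrrc61 may be mixed.

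The promoters of Adipoq, Lep and Cfd are printed because these 3 genes were called lower in the cold in both genotypes. Each stretch covers bases -250 to -11 before the RefSeq start site (GRCm38.p6, plus strand, 5′ to 3′). Capitals mark matches on either strand to the CCAAT box (CCAAT), the C/EBP site (TTGCNNAA), the Sp1 site (GGGCGG), the TATA box (TATAAA) or the PPAR/RXR repeat (AGGNCA, 1 base, AGGNCA).
Adipoq, chr16:23146286-23146525: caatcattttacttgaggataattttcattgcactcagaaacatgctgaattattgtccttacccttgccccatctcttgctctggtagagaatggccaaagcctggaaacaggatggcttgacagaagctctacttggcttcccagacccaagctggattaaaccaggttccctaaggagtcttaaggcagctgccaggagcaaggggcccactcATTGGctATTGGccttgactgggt
Lep, chr6:29059971-29060210: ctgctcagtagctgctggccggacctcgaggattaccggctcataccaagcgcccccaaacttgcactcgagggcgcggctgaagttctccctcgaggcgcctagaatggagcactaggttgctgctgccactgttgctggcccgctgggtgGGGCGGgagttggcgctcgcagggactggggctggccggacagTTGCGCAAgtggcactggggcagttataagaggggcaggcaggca
Cfd, chr10:79890603-79890842: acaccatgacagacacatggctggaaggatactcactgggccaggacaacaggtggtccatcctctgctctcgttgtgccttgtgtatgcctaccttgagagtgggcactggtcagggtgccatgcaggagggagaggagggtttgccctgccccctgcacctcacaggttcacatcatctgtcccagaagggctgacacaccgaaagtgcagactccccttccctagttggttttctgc

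The Adipoq stretch held 2 CCAAT boxes in reverse orientation, at -34 to -30 and -27 to -23. The Lep stretch held an Sp1 match at -98 to -93 and a C/EBP match, TTGCGCAA, at -55 to -48, which reads as a match on both strands. The Cfd stretch held none of the 5 motifs, and neither did the same window of Retn. Over 32841 promoter windows of the same length, the CCAAT box was present in 33.0%, GGGCGG in 31.3%, TATAAA in 12.1%, TTGCNNAA in 9.30% and the PPAR/RXR repeat in 0.314%. These matches describe letters in a window and say nothing of binding.

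Total counts per library ranged from 699703 (Cre- m4 at 30°C) to 11527643, with a median of 6644365. Levels are given in CPM, the count relative to the library size after normalisation by edgeR's TMM method. Both targeted genes were higher, not lower, under the BATdKO label. Only 3′ tags were read, and the floxed exons are not named in the sources used here. Whether counts of these genes register the deletion was not tested. Tbl1xr1 at 8°C averaged 20.9 ± 2.24 CPM (SD, n = 6) in the Cre- group, compared with 39.8 ± 4.01 CPM (SD, n = 6) in the BATdKO group, a log2 fold change of 0.92 (edgeR adjusted p = 0.00348), and for Tbl1x it was 0.39 (edgeR adjusted p = 0.0633). At 30°C mouse m6 of each group stood apart from its label. Tbl1xr1 was 38.6 CPM in m6 labelled Cre-, where the other 5 had 16.4 to 24.6 CPM, and 17.0 CPM in m6 labelled BATdKO, where the other 5 had 29.8 to 42.0 CPM. Ucp1, the uncoupling protein of brown adipocytes, was 548 CPM in that Cre- library against at most 133 CPM in the rest of its group, and 84.7 CPM in that BATdKO library against at least 217 CPM. Groups are therefore named by their labels, and the tests of the 6 adipokines were repeated without these 2 libraries. At 8°C the Tbl1xr1 ranges did not overlap (18.2 to 24.6 CPM in Cre- and 33.7 to 44.3 CPM in BATdKO mice). The sign of each difference between genotypes follows the labels, and whether the genotype labels are correct was not tested.

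The label of brown fat was checked against marker lists. Brown adipocyte markers (12 of 15 in the table, among them Ucp1, Cidea and Dio2) summed to 646 to 2230 CPM in Cre- and 1020 to 1940 CPM in BATdKO mice at 30°C, and to 2110 to 3700 CPM and 2580 to 3890 CPM at 8°C. Ucp1 rose in the cold in both genotypes (log2 fold changes 3.10 and 2.54, edgeR adjusted p = 2.67e-05 and 0.000389). Not every listed gene did. Cidea and Ebf2 had log2 fold changes of -0.73 and -0.66 in BATdKO mice (edgeR adjusted p = 0.119 and 0.305). Ebf2 and Slc27a2 had -0.18 and -0.02 in Cre- mice. Hepatocyte markers were more abundant than brown adipocyte markers. The 11 genes of that list, all in the table, summed to between 33200 and 48800 CPM in every library, with Alb, the gene of serum albumin, at 5690 to 14400 CPM, while 16 adipocyte markers shared by white and brown fat summed to 6290 to 11100 CPM. In Cre- m3 at 30°C that adipocyte sum was 6440 CPM, with Fabp4, Plin1 and Lipe at only 125, 58.2 and 110 CPM. What share of the adipocyte sum came from adipocytes was not tested. No gene of the hepatocyte list passed the test in any of the 4 comparisons between groups. For cold in BATdKO mice edgeR's unadjusted p was under 0.05 for 4 of the 11 (Fgb, Fga, Cyp2e1 and Ahsg), all higher. In the other comparisons between groups it was under 0.05 for 0 of the 11. Skeletal muscle markers, 11 of 12 in the table, ran from 0.978 to 8350 CPM across libraries, with the highest sums in Cre- m3 (8350 CPM) and m1 (3580 CPM) at 30°C. Once group means were removed, hepatocyte sums correlated over the 24 libraries with Adipoq at r = -0.70 and with Retn at -0.49. The values were -0.27 for Lep, -0.27 for Cfd, 0.40 for Rarres2 and 0.16 for Lcn2. What share of each adipokine count came from other tissue was not tested.

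**Figure D1:**
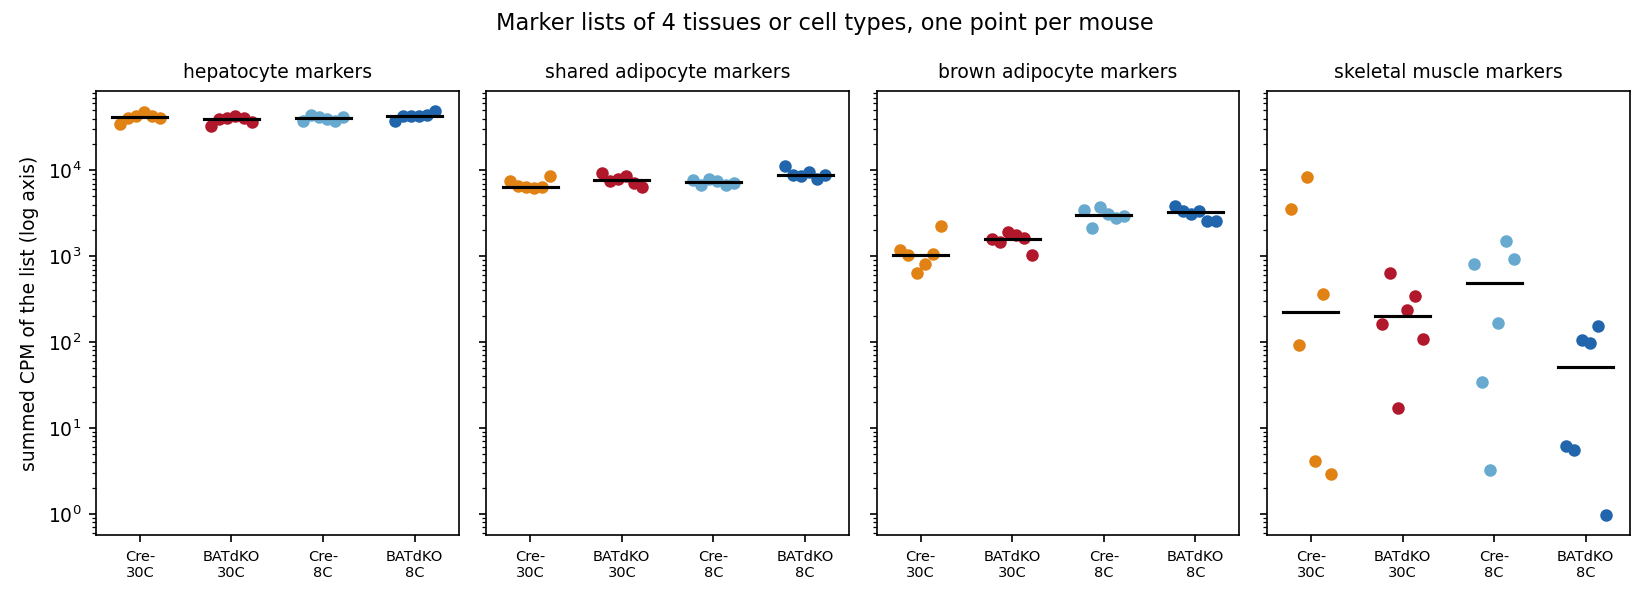
Summed CPM (log axis) of 4 marker lists, with 1 point per mouse, 6 mice per group and bars at the group medians. Hepatocyte markers reached at least 33200 CPM in each library, sums of brown adipocyte markers had higher medians at 8°C, and skeletal muscle markers varied from 0.978 to 8350 CPM between mice.

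Across the 24 mice, Cfd and Adipoq were the most abundant of the 6, with means of 270 CPM and 175 CPM, which placed them at ranks 311 and 514 among the 12485 tested genes. Rarres2 averaged 14.7 CPM, Retn 12.1 CPM, Lcn2 6.63 CPM and Lep 2.31 CPM. Their spread within groups was unequal. Retn differed 22.3-fold between the lowest and highest Cre- mouse at 30°C and Cfd 6.64-fold. Both lowest values were in m4, the shallowest library, with 2 Retn counts, and without it the folds were 12.1 and 3.28. Rarres2 differed 1.42-fold and Lcn2 1.87-fold in the 6 mice.

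**Figure D2:**
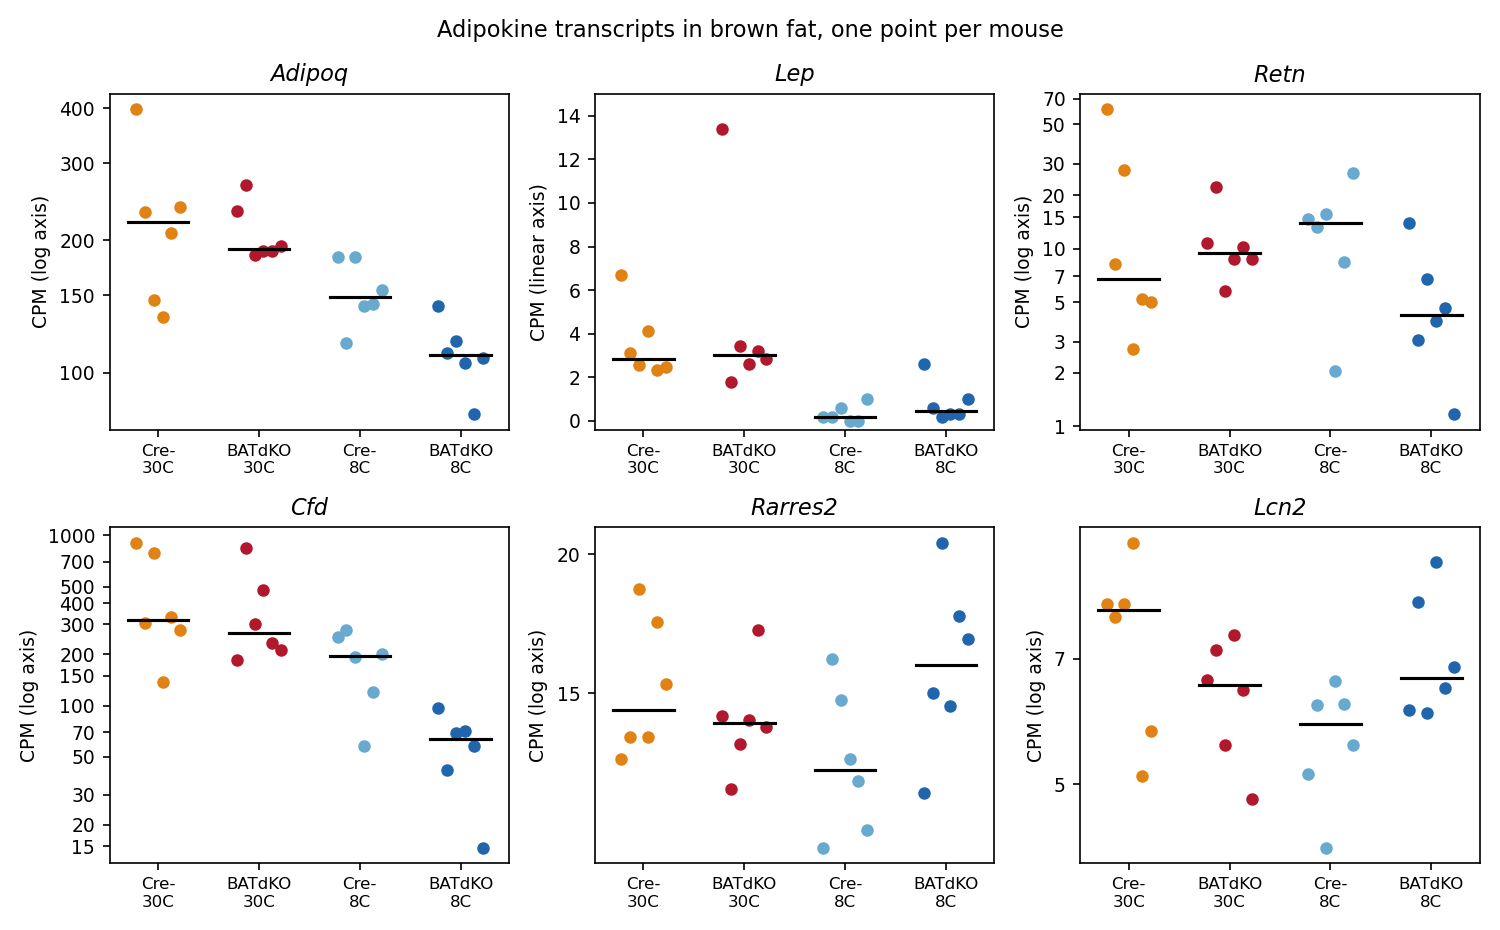
CPM of each adipokine in 24 mice, with 6 points per group and bars at the medians; the Lep axis is linear and the other axes are logarithmic. Lep was between 0 and 2.61 CPM at 8°C, Cfd reached its lowest values in BATdKO mice at 8°C, and Rarres2 and Lcn2 stayed within 10.9 to 20.5 CPM and 4.22 to 9.57 CPM.

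Adipokines were called in 3 comparisons after adjustment over all tested genes at the study's threshold of 0.1. In Cre- mice 3 of 6 adipokines (Adipoq, Lep and Cfd) were lower at 8°C than at 30°C, where 9.15% of all tested genes passed in either direction and 3.59% passed as lower. In BATdKO mice the same 3 of 6 were lower at 8°C, against 7.07% of tested genes passing and 3.31% passing as lower. Between genotypes at 8°C only Cfd passed (1 of 6, lower in BATdKO), against 1.82% of genes passing and 1.12% passing as lower. Before adjustment p was under 0.05 there for 5 of 6 adipokines and 1153 genes. Between genotypes at 30°C no adipokine passed and 0% of genes did, with 0 of 6 adipokines and 1303 genes at an unadjusted p under 0.05, and DESeq2 called 90 genes and no adipokine. For the interaction of genotype and temperature, 0.0961% of genes and no adipokine passed in edgeR or DESeq2, with 3 of 6 adipokines and 1005 genes at an unadjusted p under 0.05. Without both m6 libraries, 500 genes passed between genotypes at 30°C but again no adipokine, the lowest adjusted p being 0.411 for Retn (log2 difference -1.03, SE 0.54). No interaction of an adipokine passed without them either (adjusted p from 0.418 for Rarres2 to 0.889 for Retn). The 2 comparisons between temperatures share no mice, but each shares its groups with the comparisons between genotypes.

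The median log2 fold change of the 6 was -0.60 for cold in Cre- mice and -1.08 for cold in BATdKO mice, beside -0.02 and -0.003 over all tested genes. The Cre- median lay between Adipoq (-0.58) and Retn (-0.62), and the Retn value was 0.29 without Cre- m1 at 30°C. Between genotypes it was -0.08 at 8°C and -0.14 at 30°C. The 30°C and 8°C libraries carry separate blocks of library numbers, so temperature and any difference in handling between those blocks cannot be told apart.

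**Figure D3:**
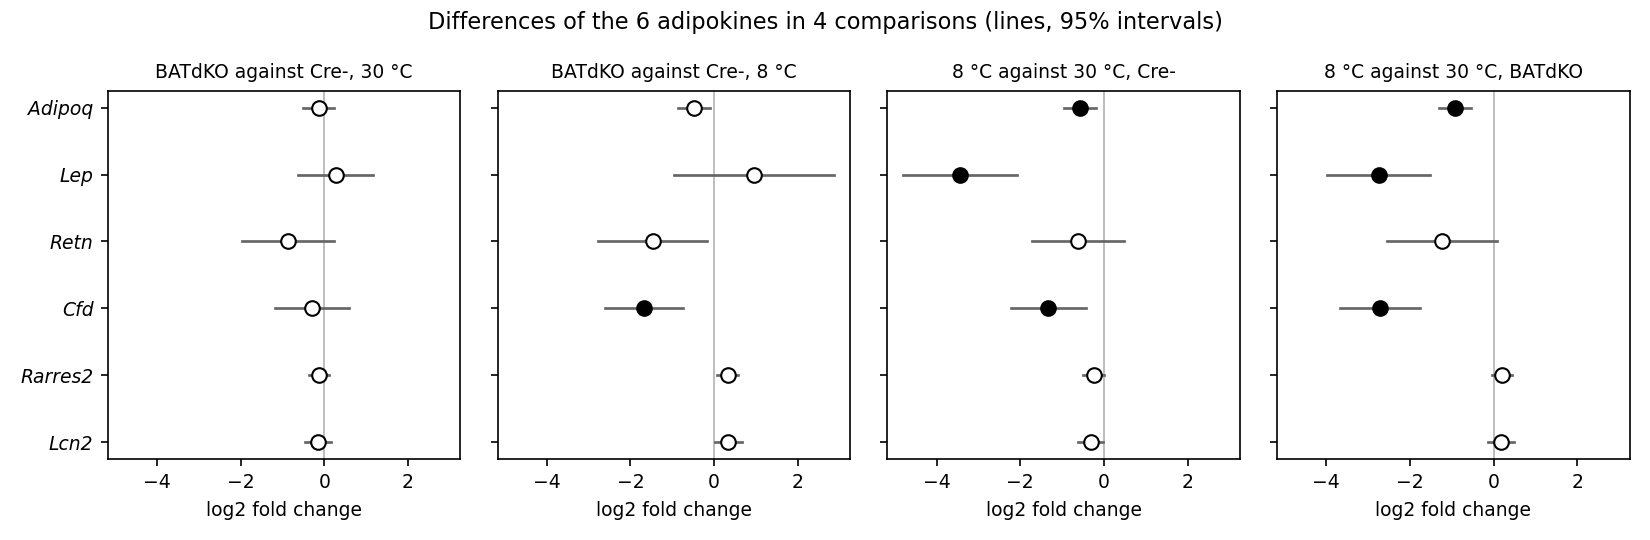
Log2 fold changes of the 6 adipokines in 4 comparisons, with lines for 95% intervals and filled points for an adjusted p under 0.1 in edgeR's quasi-likelihood test. Filled points are Adipoq, Lep and Cfd for cold in both genotypes, and Cfd for genotype at 8°C.

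Leptin transcripts were few in the cold. In Cre- mice Lep ranged from 2.35 to 6.69 CPM at 30°C (group median 2.85) and from 0 to 1.01 CPM at 8°C (group median 0.164). In BATdKO mice it ranged from 1.77 to 13.4 CPM at 30°C (group median 3.04) and from 0.178 to 2.61 CPM at 8°C (group median 0.457). All 6 Cre- mice at 8°C lay below all 6 at 30°C, a separation seen in 2.93% of tested genes, while in BATdKO mice the highest cold value, m1, overlapped the warm range.

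The fitted log2 fold change of Lep was -3.43 (SE 0.66, edgeR adjusted p = 0.00125) in Cre- mice and -2.75 (SE 0.60, edgeR adjusted p = 0.00608) in BATdKO mice. These rest on few counts. At 8°C each library held 0 to 8 Lep counts, and the 6 Cre- and 6 BATdKO libraries together held 13 and 22 counts, against 178 and 180 at 30°C. Pooled over the libraries of a group, Lep was 11.9-fold lower in the cold in Cre- mice (95% exact interval 6.81 to 22.9) and 6.52-fold lower in BATdKO mice (4.18 to 10.7), with intervals that cover counting error only. Both calls held in all 24 fits that left out one mouse and without both m6 libraries (log2 fold changes -3.54 and -2.85).

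BATdKO and Cre- mice were not told apart in Lep. The pooled ratio of BATdKO to Cre- was 1.95 at 8°C (95% exact interval 0.941 to 4.22) and 1.07 at 30°C (0.862 to 1.32), and the edgeR adjusted p was 0.858 and 0.905. At 8°C the fitted log2 difference of 0.96 became 1.94 without Cre- m6, which held 8 of that group's 13 counts, and 0.57 without BATdKO m1. At 30°C the highest BATdKO mouse, m1, had 13.4 CPM and the next 3.42 CPM. Without it the fitted log2 difference of 0.28 became -0.40.

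Adipoq was lower in the cold in both genotypes. In Cre- mice it ran from 134 to 398 CPM at 30°C (group median 220) and from 117 to 183 CPM at 8°C (group median 149). In BATdKO mice it ran from 185 to 268 CPM at 30°C (group median 192) and from 80.4 to 142 CPM at 8°C (group median 109). The BATdKO ranges did not overlap, as in 2.99% of tested genes, and the Cre- ranges did, with m3 and m4 at 30°C at 146 and 134 CPM.

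The log2 fold change in the cold was -0.93 (SE 0.18, edgeR adjusted p = 0.00233) in BATdKO mice, a 1.90-fold fall, and an exact permutation test of mean log2 CPM gave p = 0.00216, the least that 924 assignments allow. In Cre- mice it was -0.58 (SE 0.18, edgeR adjusted p = 0.0583), and the exact permutation test gave p = 0.0779. That call was lost when Cre- m1 at 30°C (log2 fold change -0.34), or Cre- m2, m4 or m5 at 8°C was left out, with an adjusted p of up to 0.209, and in a fit of the 2 Cre- groups alone (adjusted p = 0.127). Without both m6 libraries the values were -0.96 and -0.57, and both passed. The interaction was -0.35 (SE 0.26, edgeR adjusted p = 0.758), so a larger fall in BATdKO mice was not shown.

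At 8°C Adipoq averaged 111 ± 19.8 CPM (SD, n = 6) in BATdKO and 154 ± 25.7 CPM (SD, n = 6) in Cre- mice. The log2 difference was -0.48 (SE 0.18, edgeR adjusted p = 0.302), which missed the threshold, and the exact permutation test of this single gene gave p = 0.00866. With only the 2 groups at 8°C in the fit the adjusted p was 0.0188. In order of mean level, Cre- 30°C (226 CPM) and BATdKO 30°C (210 CPM) did not differ beyond their spread (exact permutation p = 0.933), and both cold groups had lower means. With group means removed, Adipoq correlated over the 24 libraries with hepatocyte markers at r = -0.70 and with shared adipocyte markers at 0.55. The part of tissue composition in the Adipoq differences was not tested.

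Adipoq is a PPARγ target gene and its protein assembles into multimers in the endoplasmic reticulum. Of 9 genes fixed as a list for its assembly and secretion, 8 were tested, and Plod1, a lysyl hydroxylase, alone passed at 8°C (log2 fold change 0.31, SE 0.09, higher in BATdKO, edgeR adjusted p = 0.0844). Of all tested genes, 0.697% passed as higher there. None of the 8 passed in the other 3 comparisons between groups. Sel1l, Erp44 and Ero1l, which handle folding and release of adiponectin, had log2 differences of -0.05, 0.14 and 0.11 for cold in Cre- mice and 0.00, 0.35 and -0.06 in BATdKO mice. The receptors Adipor1 and Adipor2 and the adiponectin-binding cadherin Cdh13 did not pass in any comparison, with Adipor2 at 0.16 (SE 0.07) and Cdh13 at -0.13 (SE 0.16) for cold in Cre- mice. For cold in BATdKO mice Cdh13 had 0.47 (SE 0.17, edgeR adjusted p = 0.116), between genotypes at 30°C -0.46 (SE 0.17, edgeR adjusted p = 0.313), and its interaction was 0.60 (SE 0.23, edgeR adjusted p = 0.505).

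Cfd passed in 3 of the 4 comparisons between groups. It ran from 137 to 908 CPM in Cre- mice at 30°C (group median 319) and from 185 to 848 CPM in BATdKO mice at 30°C (group median 266). At 8°C it ran from 58.0 to 280 CPM in Cre- mice (group median 197) and from 14.7 to 96.3 CPM in BATdKO mice (group median 63.6). All 6 BATdKO mice in the cold lay below all 6 at 30°C, whereas Cre- m4 at 8°C (58.0 CPM) lay within the range of BATdKO mice at that temperature.

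The fall of Cfd in the cold was 6.54-fold in BATdKO mice (log2 fold change -2.71, SE 0.47, edgeR adjusted p = 0.000522; exact permutation p = 0.00216). It was 2.52-fold in Cre- mice (log2 fold change -1.33, SE 0.44, edgeR adjusted p = 0.0709), where the exact permutation test gave p = 0.0584. The Cre- call was lost without Cre- m1 or m3 at 30°C or without Cre- m3, m4, m5 or m6 at 8°C (adjusted p up to 0.195), and with robust dispersion estimates (adjusted p = 0.137). Without both m6 libraries both calls held (log2 fold changes -1.45 in Cre- and -2.84 in BATdKO mice, edgeR adjusted p = 0.0357 and 0.000337). The interaction was -1.38 (SE 0.62, 95% interval -2.65 to -0.10), with an unadjusted edgeR p of 0.0355 and an adjusted p of 0.577.

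At 8°C Cfd averaged 58.6 ± 28.0 CPM (SD, n = 6) in BATdKO and 184 ± 83.1 CPM (SD, n = 6) in Cre- mice, 3.19-fold lower (log2 fold change -1.67, SE 0.45, edgeR adjusted p = 0.0713; exact permutation p = 0.0108). The call was lost in 9 of 24 fits that left out one mouse (Cre- m1, m2, m3 or m6, or BATdKO m2, m3, m4, m5 or m6, all at 8°C), with an adjusted p of up to 0.162 and a log2 fold change between -1.86 and -1.47. Robust dispersion estimates also ended it (adjusted p = 0.166). Without both m6 libraries of 30°C it was -1.68 with an adjusted p of 0.0457. At 8°C the sum of skeletal muscle markers had group medians of 51.9 CPM in BATdKO and 491 CPM in Cre- mice. None of the 11 tested passed, although before adjustment p was under 0.05 for 10 (median log2 difference -3.10), beside 1153 of the 12485 tested genes. Once group means were removed, Cfd correlated over the 24 libraries with the muscle markers (r = 0.51) and with fibroblast and progenitor markers (r = 0.57), and their part in the difference was not tested. The ranges overlapped, and 1.95% of tested genes had ranges that did not. At 30°C the means were 376 ± 255 CPM (SD, n = 6) in BATdKO and 459 ± 313 CPM (SD, n = 6) in Cre- mice, a difference within the spread (edgeR adjusted p = 0.889); ranges of 0.296% of genes did not overlap there, and those of no adipokine.

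Adipoq and Cfd were also lower relative to 3 of the 16 shared adipocyte markers, Fabp4, Plin1 and Lipe. The mean log2 CPM of Fabp4, Plin1 and Lipe differed by 0.59 for cold in Cre- mice and by 0.16 in BATdKO mice (exact permutation p = 0.165 and 0.688), and by 0.20 between genotypes at 8°C (exact permutation p = 0.301). On the log2 ratio to these 3 genes, Cfd differed by -1.79 for cold in Cre- mice, -2.82 for cold in BATdKO mice and -1.89 between genotypes at 8°C (exact permutation p = 0.0303, 0.00216 and 0.0108). Adipoq on that scale differed by -1.07, -1.09 and -0.68 (exact permutation p = 0.0108, 0.00216 and 0.00216). A lower ratio for cold in Cre- mice was not particular to Adipoq and Cfd. Lep differed by -3.99, Lcn2 by -0.98, Rarres2 by -0.83 and Retn by -0.60 (exact permutation p = 0.00216, 0.0628, 0.0931 and 0.545). For cold in BATdKO mice Lep differed by -2.44, Retn by -1.35, and Rarres2 and Lcn2 by 0.01 each. This scale was chosen after the data had been seen, and the other markers of that list were not used for it. Of the 3 genes, Fabp4 ran from 125 CPM (m3) to 2090 CPM (m6) in Cre- mice at 30°C. The part of adipocyte number in these differences was not tested.

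Other genes of the alternative complement pathway were counted in the same comparisons. Of 10 tested, 1 passed in the cold in each genotype (beside 9.15% and 7.07% of all tested genes), Cd46, a membrane inhibitor of complement (log2 fold changes -0.69 in Cre-, edgeR adjusted p = 0.0737, and -0.70 in BATdKO, edgeR adjusted p = 0.0957, from 1 to 32 counts per library), and none passed between genotypes. The substrate of adipsin, Cfb, had log2 differences of 0.05 (SE 0.24) and -0.17 (SE 0.24) for cold in Cre- and BATdKO mice. C3, the central component and also an abundant liver transcript, had -0.10 (SE 0.10) and 0.00 (SE 0.10), and properdin, Cfp, had 0.07 (SE 0.15) and -0.07 (SE 0.15). For the receptor C3ar1 the values were -0.19 (SE 0.23) and -0.11 (SE 0.24).

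Retn varied widely between mice and passed in no comparison. It ran from 2.73 to 60.9 CPM in Cre- mice (group median 6.75) and from 5.77 to 22.1 CPM in BATdKO mice (group median 9.45) at 30°C. At 8°C it ran from 2.06 to 26.7 CPM in Cre- mice (group median 13.9) and from 1.17 to 13.9 CPM in BATdKO mice (group median 4.26). All ranges overlapped, and Cre- m1 and m3 at 30°C, at 60.9 and 27.8 CPM, were the highest of the 24.

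At 8°C Retn was lower under the BATdKO label without passing the test (log2 fold change -1.47, SE 0.63, edgeR adjusted p = 0.431; exact permutation p = 0.0931). With only the 2 groups at 8°C in the fit the adjusted p was 0.0854. For cold the value in BATdKO mice was -1.23 (SE 0.64, edgeR adjusted p = 0.326; exact permutation p = 0.0476), and with only the 2 BATdKO groups in the fit it passed (-1.24, edgeR adjusted p = 0.0776). In Cre- mice it was -0.62 (SE 0.54, edgeR adjusted p = 0.593), and 0.29 without Cre- m1 at 30°C. Their mean log2 CPM differed by 0.08 (exact permutation p = 0.918). Without both m6 libraries the cold values were -1.32 and -0.87 in BATdKO and Cre- mice, and neither passed. Cap1, an actin regulator that has been described as a resistin receptor, had 0.17 (SE 0.19) and -0.17 (SE 0.19) for cold in Cre- and BATdKO mice. Retnla, a resistin-like gene of alternatively activated macrophages and fat, was lower in the cold in Cre- mice (log2 fold change -1.58, SE 0.44, edgeR adjusted p = 0.0291) and had -1.16 (SE 0.47, edgeR adjusted p = 0.185) in BATdKO mice. Its interaction did not pass (0.42, SE 0.65, edgeR adjusted p = 0.922).

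Retn and Cfd varied together between mice of the same group. After removal of group means, their log2 CPM correlated with Pearson's r = 0.86 and Spearman's rho = 0.80 over 24 mice (permutation of mice within groups, p = 1e-05, the smallest that 100000 resamples give, and p = 4e-05, adjusted 0.00015 and 0.0006 over 15 pairs of adipokines). Within groups r was 0.96 and 0.59 in Cre- and BATdKO mice at 30°C and 0.88 and 0.92 at 8°C, and leaving out the 2 mice farthest from the median Retn gave r = 0.82. None of the other 14 pairs passed an adjusted p of 0.1. The 2 values of a mouse come from 1 library and share its composition. Cre- m1 and m3 at 30°C, the highest in both genes among the Cre- mice, also had the highest skeletal muscle sums. Over the 24 libraries, with group means removed, Retn and Cfd correlated with muscle markers at r = 0.54 and 0.51 and with fibroblast and progenitor markers at 0.59 and 0.57, compared with 0.15 and 0.14 for shared adipocyte markers. These values share libraries, and the part of other tissue in this relation was not tested.

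**Figure D4:**
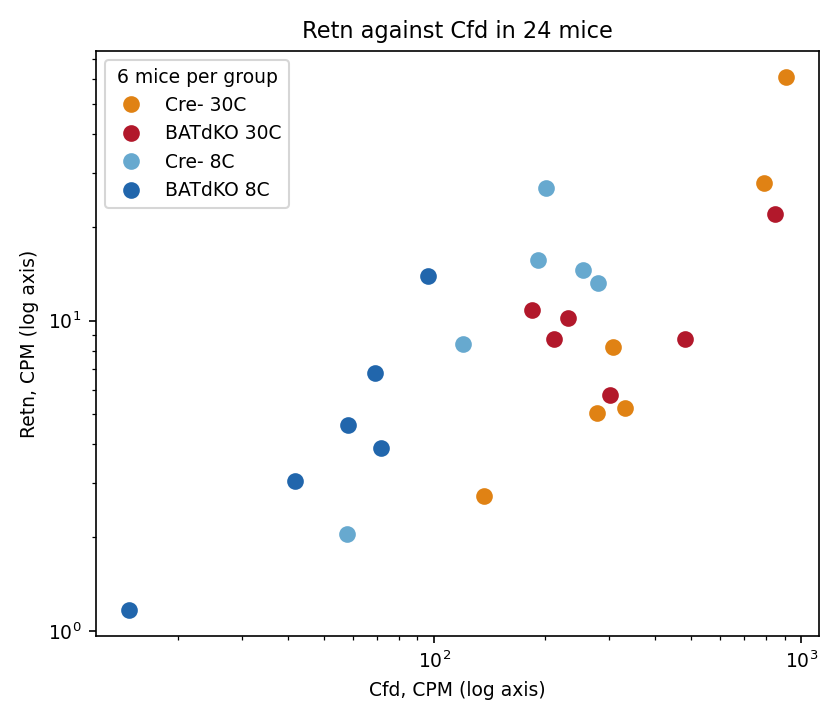
Retn against Cfd in CPM, both axes logarithmic, with 1 point per mouse and 6 mice per group. Within each group mice with more Cfd tended to have more Retn, with r from 0.59 in BATdKO mice at 30°C to 0.96 in Cre- mice at 30°C, and the lowest point in both is a BATdKO mouse at 8°C with 14.7 CPM of Cfd and 1.17 CPM of Retn.

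Rarres2 also passed in no comparison. It ran from 13.1 to 18.6 CPM in Cre- and from 12.3 to 17.1 CPM in BATdKO mice at 30°C (group medians 14.5 and 14.1). At 8°C it ran from 10.9 to 16.1 CPM in Cre- and from 12.2 to 20.5 CPM in BATdKO mice (group medians 12.8 and 15.9). All ranges overlapped. The log2 difference between genotypes at 8°C was 0.32 (SE 0.12, 95% interval 0.07 to 0.57, edgeR adjusted p = 0.303; exact permutation p = 0.0584), and for cold it was -0.24 (SE 0.12) in Cre- and 0.20 (SE 0.12) in BATdKO mice, with edgeR adjusted p of 0.288 and 0.414. The interaction was 0.44 (SE 0.17, edgeR adjusted p = 0.497). Without both m6 libraries the 3 differences were 0.32, -0.25 and 0.19, and none passed. Its receptor Cmklr1 had -0.20 (SE 0.28) and -0.07 (SE 0.29) for cold in Cre- and BATdKO mice.

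Lcn2 passed in no comparison. It ran from 5.11 to 9.57 CPM in Cre- and from 4.81 to 7.47 CPM in BATdKO mice at 30°C (group medians 7.97 and 6.53). At 8°C it ran from 4.22 to 6.60 CPM in Cre- and from 6.06 to 9.09 CPM in BATdKO mice (group medians 5.88 and 6.66). All ranges overlapped. Its log2 difference was 0.34 between genotypes at 8°C (SE 0.15, edgeR adjusted p = 0.463; exact permutation p = 0.0368) and -0.32 for cold in Cre- mice (SE 0.15, edgeR adjusted p = 0.25; exact permutation p = 0.0498). On the ratio to Fabp4, Plin1 and Lipe the former was 0.14 (exact permutation p = 0.593). For cold in BATdKO mice it was 0.17 (SE 0.15, edgeR adjusted p = 0.62), and the interaction was 0.49 (SE 0.21, edgeR adjusted p = 0.556). Without both m6 libraries the difference between genotypes at 8°C was 0.34 and those for cold were -0.39 in Cre- and 0.10 in BATdKO mice, and none passed.

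Of 11 tested genes that are induced with Lcn2 in inflammation, none passed in any comparison. Saa3, Hp and Steap4 had log2 differences of 0.01, 0.28 and 0.13 between genotypes at 8°C. The receptor for lipocalin 2, Slc22a17, was lower in the cold in Cre- mice (log2 fold change -0.80, SE 0.27, edgeR adjusted p = 0.0769) and had 0.10 (SE 0.30) in BATdKO mice, from 2 to 49 counts per library. Its interaction of 0.90 (SE 0.40, edgeR adjusted p = 0.577) did not pass, so a difference between genotypes in this fall was not shown. Between genotypes at 30°C it had -0.87 (SE 0.27, edgeR adjusted p = 0.218). Neutrophils, which store lipocalin 2, were represented by 4 of 12 markers in the table, whose sum was 10.9 to 22.8 CPM over all libraries. The hepatocyte sums given above were at least 33200 CPM in libraries where Rarres2 and Lcn2 were at most 20.5 and 9.57 CPM, and their part in these 2 genes was not tested.

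Among 13 regulators of adipokine genes, 1 passed for cold in each genotype and 3 for genotype at 8°C, all of them higher. Of all tested genes, 5.57% passed as higher for cold in Cre- mice, 3.76% for cold in BATdKO mice and 0.697% for genotype at 8°C. Cebpb, a transcription factor of the C/EBP family, rose in the cold by a log2 fold change of 0.87 (SE 0.14, edgeR adjusted p = 0.000172) in Cre- and 0.48 (SE 0.14, edgeR adjusted p = 0.0475) in BATdKO mice. At 8°C Foxo1, a factor that insulin signalling holds out of the nucleus, was higher under the BATdKO label by 0.42 (SE 0.09, edgeR adjusted p = 0.0127), Ncor1, a corepressor that binds TBL1 and TBLR1, by 0.29 (SE 0.07, edgeR adjusted p = 0.0496), and Cebpa by 0.25 (SE 0.07, edgeR adjusted p = 0.0871). Pparg had 0.27 (SE 0.35) and -0.38 (SE 0.35) for cold in Cre- and BATdKO mice and did not pass.

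Other secreted products of fat moved in both directions. Of 16 tested, 3 rose and 2 fell in the cold in Cre- mice, 2 rose and 1 fell in BATdKO mice, and 1 was higher and 2 were lower in BATdKO than Cre- mice at 8°C. Of all tested genes, 5.57% passed as higher and 3.59% as lower for cold in Cre- mice, and 3.76% and 3.31% in BATdKO mice. Between genotypes at 8°C 0.697% passed as higher and 1.12% as lower. Bmp8b, a signal made by brown adipocytes, rose in the cold by a log2 fold change of 3.80 (SE 0.35) in Cre- and 3.01 (SE 0.50) in BATdKO mice and was lower in BATdKO at 8°C (log2 fold change -2.25, SE 0.30, edgeR adjusted p = 5.28e-05), from 1 to 20 counts per library at 30°C. C1qtnf12, a paralogue of adiponectin, rose by 1.26 (SE 0.19) and 0.68 (SE 0.20) and had -0.85 between genotypes at 8°C (SE 0.18, edgeR adjusted p = 0.0128).

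Angptl4, an inhibitor of lipoprotein lipase, also fell in the cold (log2 fold changes -1.28 in Cre- and -0.67 in BATdKO mice, edgeR adjusted p = 4.72e-05 and 0.0323) but was higher in BATdKO at 8°C (0.76, SE 0.19, edgeR adjusted p = 0.0434). Nampt rose in the cold in Cre- mice (0.47, SE 0.14, edgeR adjusted p = 0.037) and had 0.03 (SE 0.14) in BATdKO mice, and its interaction did not pass (-0.44, SE 0.19, edgeR adjusted p = 0.556). Rbp4, Serpina12 and Agt, secreted by both fat and liver, had log2 differences between -0.16 and 0.15 in all 4 comparisons.

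**Figure D5:**
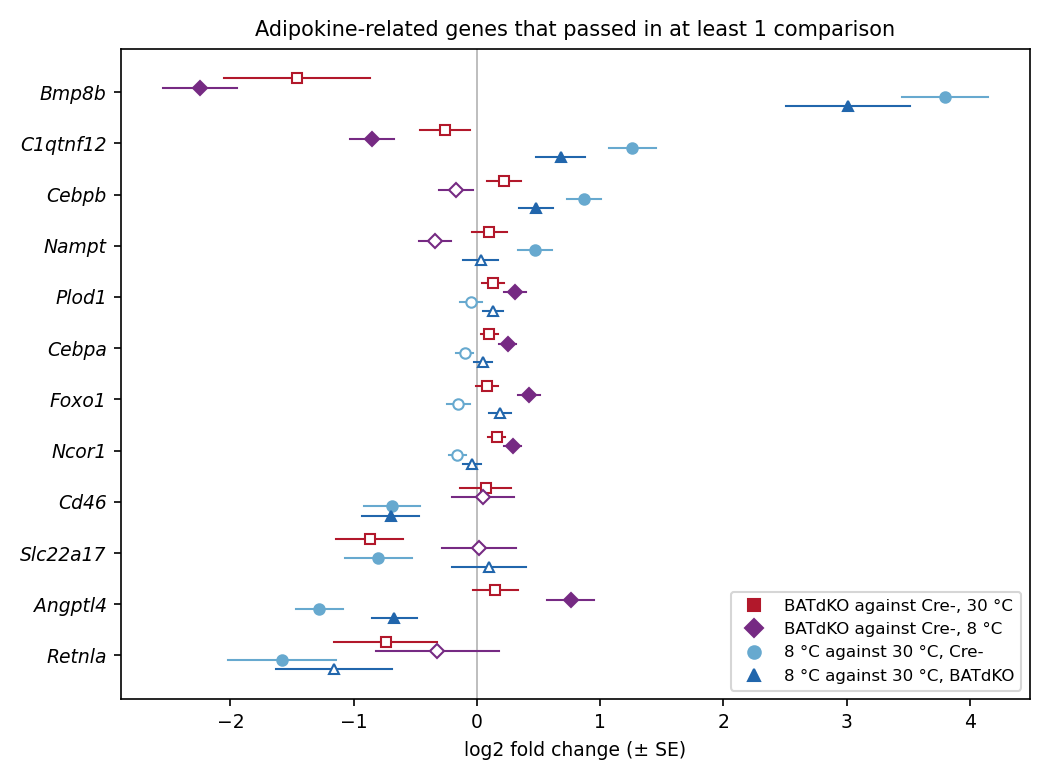
Log2 fold changes (± SE) of the 12 genes from the lists of receptors, assembly factors, complement, regulators and other secreted products that passed an adjusted p of 0.1 in at least 1 comparison between groups; filled symbols passed. Bmp8b and C1qtnf12 were higher in the cold and lower in BATdKO mice at 8°C, and Angptl4 showed the reverse.

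Lists of adipocyte genes were counted in the same comparisons. Of 16 shared adipocyte markers, 4 rose and 1 fell in the cold in Cre- mice, 4 rose and none fell in BATdKO mice, and 4 were higher and none lower in BATdKO mice at 8°C, among them the triglyceride synthesis enzyme Dgat2 (log2 fold change 0.95, SE 0.12) and Lpl (1.01, SE 0.25). Of 8 tested white fat associated genes none passed in any comparison. Of 12 tested brown adipocyte markers, 8 and 7 rose in the cold in Cre- and BATdKO mice, and none passed between genotypes. Beside these counts, 5.57% and 3.76% of all tested genes passed as higher for cold in Cre- and BATdKO mice. As lower, 3.59% and 3.31% passed. For genotype at 8°C the shares were 0.697% higher and 1.12% lower.

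Each adipokine had different nearest genes by Pearson's r of log2 CPM over the 24 libraries. For Adipoq these were Rasl12, Tspo and Slc1a3 (r = 0.84, 0.84 and 0.83, and 0.71, 0.79 and 0.72 once group means were removed). For Lep they were Blcap, Ttc3 and Cav2 (0.83, 0.83 and 0.81), which fell to 0.40, 0.36 and 0.47 within groups. For Retn they were Oxtr, Car5b and Chst1 (0.85, 0.83 and 0.83, and 0.85, 0.79 and 0.79 within groups), so the likeness was present within groups.

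For Cfd the nearest genes were Cox14, Snhg18 and Gpx3 (0.84, 0.83 and 0.83, and 0.56, 0.48 and 0.43 within groups). For Rarres2 they were Sod1, Gckr and Faah (0.77, 0.75 and 0.74, and 0.76, 0.68 and 0.74 within groups), of which Gckr encodes the glucokinase regulator of liver. For Lcn2 they were Sertad2, H2-Q7 and Etfbkmt (0.68, 0.68 and 0.66, and 0.67, 0.61 and 0.69 within groups). These values describe 24 libraries that share groups, depth and composition.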

How the data were processed

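Forward reads of QuantSeq 3′ FWD libraries were trimmed (BBDuk) and aligned by the authors to GRCm38 (STAR 2.5.3a), who deposited raw counts per gene from Rsubread. Per the study's methods, outliers were removed after checks of expression distributions, correlations and principal components, but the mice removed are not named, so all 24 libraries were used. The annotation release is not given in the sources used here. Columns were matched to samples by the library name in the labels, and Ensembl identifiers to symbols (12608 of 12615).

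Counts were analysed with edgeR 4.0.16 (R 4.3.3, limma 3.58.1): TMM, filterByExpr (130 genes removed), a quasi-likelihood fit with 4 group means, 5 contrasts, and Benjamini-Hochberg adjustment over all tested genes at 0.1. Each standard error is the log2 fold change divided by the root of its F value. Single genes were also compared by two-sided exact permutation tests of log2 CPM (prior count 1, 924 assignments of 6 against 6, smallest p 0.00216), not adjusted over genes. Alternatives were DESeq2 1.42.0 (the authors' tool), RLE normalization, no filter, a mean count of at least 10, robust dispersion, only the groups compared, a threshold of 0.05, a prior count of 5, and leaving out each mouse. P-values measure the spread between mice of these groups. On simulated counts for cold in Cre- mice (12477 genes, 200 changed), edgeR recovered 183 with 15 false calls. The changed genes were drawn from the better counted ones, and their median absolute fitted log2 fold change was 0.984. Recovery of smaller changes, or of genes with as few counts as Lep, was not tested. Intervals of counts are exact at 95%.

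The adipokines and all gene lists were chosen with earlier results of these data known. Named genes are the 6 adipokines, list genes past the threshold or that are receptors, substrates or partners of an adipokine, Tbl1x, Tbl1xr1 and Ucp1, and the 3 genes most correlated with each adipokine; the values of Fabp4, Alb and other list genes were added after they had been seen. Gene positions are from GENCODE vM21 and promoters from RefSeq (GRCm38.p6), with windows usable for 4 of the 6. The Lcn2 window overlapped an annotated exon and was left out.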

Additional observations from a re-analysis of the deposited data

Results flagged for a closer look

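Of 40 sets of 6 mice examined (10 genes in 4 groups), 6 held a mouse whose gap to its nearest neighbour exceeded Dixon's 95% limit. Chance gives about 1 in 20 for independent sets of normally distributed values. Here CPM were used without logs and the sets share libraries, so 6 of 40 cannot be set against that share. Lep was 13.4 CPM in BATdKO m1 at 30°C (next 3.42 CPM) and 2.61 CPM in BATdKO m1 at 8°C (next 0.978 CPM), which are different mice. Retn was 22.1 CPM in BATdKO m2 at 30°C (next 10.8 CPM). The remaining 3 were the libraries that stood apart from their labels, with Tbl1xr1 at 38.6 CPM and Ucp1 at 548 CPM in Cre- m6 at 30°C, and Tbl1x at 39.7 CPM in BATdKO m6 at 30°C.

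Among genes of the lists, the effect of cold differed between genotypes for Dgat2 (interaction log2 0.81, edgeR adjusted p = 0.0715) and Ighm, an immunoglobulin heavy chain gene (interaction log2 1.32, edgeR adjusted p = 0.0185). No adipokine passed for the interaction, which does not show that there was none. Before adjustment edgeR's p was 0.0355 for Cfd, 0.0154 for Rarres2 and 0.0297 for Lcn2.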

How the results depend on the processing

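Of 233 edgeR and DESeq2 values of single adipokines recomputed under other settings than leaving out one mouse, 224 kept their direction and side of the threshold, 6 lost and 3 gained a call, and none changed sign. RLE normalization, no filter and a mean count of at least 10 changed no call and moved no count by over 1.5 times. The number of adipokines called between genotypes at 8°C (1) was 0 with robust dispersion and at a threshold of 0.05, and 3 with only the groups compared; for cold in Cre- mice (3) it was 1 at a threshold of 0.05, and for cold in BATdKO mice (3) it was 4 with only the groups compared. Of all tested genes, DESeq2 called 90 between genotypes at 30°C (0 in edgeR) and 51 for the interaction (12), robust dispersion called 21 for the interaction, and the 8°C groups alone gave 477 between genotypes at 8°C (227). At a threshold of 0.05 the counts were 140 for genotype at 8°C, 757 and 543 for cold in Cre- and BATdKO mice (1143 and 883) and 7 for the interaction. Without m6 of both 30°C groups, 500 genes passed between genotypes at 30°C and 44 for the interaction, and the adipokines called were the same in number. The cause of these differences was not tested.

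When the mice were left out in turn (24 fits), the adipokines called numbered 0 to 1 for genotype at 8°C and 1 to 3 for cold in Cre- mice, and 3 in every fit for cold in BATdKO mice. All genes called ranged from 138 to 276 for genotype at 8°C, from 0 to 369 for genotype at 30°C (the most without Cre- m6), from 574 to 1069 for cold in BATdKO mice and from 7 to 37 for the interaction. Differences between genotypes at 30°C changed sign, none of them called: Adipoq ranged from -0.23 to 0.11, Retn from -1.20 to 0.05 and Cfd from -0.71 to 0.01 (each highest without Cre- m1), and Lep from -0.40 (without BATdKO m1) to 0.68. Retn for cold in Cre- mice ranged from -0.96 to 0.29. In the permutation tests some signs turned, none of them at a p under 0.05. Retn between genotypes at 30°C was 0.00, and -0.03 with a prior count of 5. On the ratio to Fabp4, Plin1 and Lipe, chosen after the data had been seen, Lep and Retn between genotypes at 30°C were -0.58 (0.10 before) and -0.71, and Retn for cold in Cre- mice was -0.60 (0.08 before).

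No paired analysis was possible because the mouse numbers in the labels are shared by no groups, and m1 to m6 only name mice within a group. Lep had 0 to 8 counts per library at 8°C, and Retn and Lcn2 had 2 and 7 counts in Cre- m4 at 30°C.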
